A study of Mus musculus with 4 samples.

Results

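The genes described here encode integrins, laminins, kindlins and talins. They were taken by symbol, 39 of the 24940 rows of the deposited table: 24 integrin subunits, 10 laminin chains, 3 kindlins (Fermt1, Fermt2 and Fermt3) and 2 talins (Tln1 and Tln2). RNA was sequenced from pancreatic islets, the clusters of endocrine cells that release insulin and glucagon, of male mice aged 3 to 4 months on low-fat chow. The control group (replicates 1 and 2) came from non-transgenic mice, and the other group (replicates 3 and 4) from Tafazzin-knockdown mice. Tafazzin is the mitochondrial transacylase that remodels cardiolipin. Each library was 1 pool of about 300 islets from 2 to 3 mice. The promoter or construct of the knockdown is not given in the sources used here, and with non-transgenic controls the transgene and the loss of Tafazzin cannot be told apart. With 2 pools a group, the p-values rest on the spread between these pools only. The limma p-values, standard errors and fold change intervals take this spread mostly from other genes of similar level, not the gene's own pools.

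Integrins are receptors of 1 alpha and 1 beta subunit that join the cell to extracellular matrix, or white blood cells to other cells. Laminins are secreted trimers of an alpha, a beta and a gamma chain that build basement membranes. Talins and kindlins bind the cytoplasmic tail of the beta subunit, switch the receptor to its active form and tie it to actin. In the islet, the basement membrane lies mainly along capillaries and at the outer border, and beta cells use the laminin it holds through beta1 integrins.

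The recovered depth was between 68823160 and 81073502 reads a library, of which the ribosomal RNA precursor Rn45s took 41.6% to 42.6%. Values are reads per 10000000 library reads, called units below. They are not scaled by gene length, so levels were compared between libraries and not between genes. The defining islet hormone genes were high in all 4 libraries, with the insulin gene Ins2 between 46100 and 58500 units. Taz, the gene of Tafazzin, had 23.1 and 15.4 units in the control pools, compared with 13.8 and 12.7 in the knockdown pools, lower in both knockdown libraries but not called (log2 fold change -0.65 ± 0.20 SE, limma adjusted p = 0.136). Log2 fold changes, knockdown minus control, were taken after median-ratio scaling on log2(value + 1), a scale on which the change of weakly expressed genes is understated. On the deposited scale the median of all genes was 0.17, and after scaling it was -0.01.

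In the knockdown islets, 5 of the 39 genes rose: the kindlin gene Fermt1, the integrin genes Itga5 and Itgb6, and the laminin genes Lama3 and Lamb2. None fell. In pooled islets, more cells of a type and more RNA per cell cannot be told apart. The receptor subunit genes Itgb1 and Itgav and the talin gene Tln1 were not called and had log2 fold changes between -0.01 and 0.13. A call is a limma adjusted p under 0.05, and 1.12% of the 13531 tested genes were called higher and 0.163% lower. Of the 39 genes, 31 had a mean of at least 1 unit and were tested. Of the 31, 24 had a fold change above 0 (49.1% of all tested genes), and the median was 0.36. In 15 of the 31 both knockdown libraries lay above both controls, against 20.4% of all tested genes, and in 4 (Itga1, Itgb2, Itgb8 and Tln2) both lay below, against 20.0%. These counts cover only genes that passed the filter, and Lama3 and Fermt3 passed it through their knockdown values. The edgeR test on recovered reads called the same 5 genes higher (1.29% of all tested genes) and 0 lower.

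The calls changed when single libraries were left out. With either control left out limma called 0 of the 39 genes and 0 of all genes. At an unadjusted p under 0.05 there were 8 of 32 tested when control replicate 1 was left out (5.37% of all tested genes) and 10 of 32 when control replicate 2 was (9.23%). Without knockdown replicate 3 the called genes were Fermt1 and Itga5, where 0.337% of all tested genes were called higher. On the deposited scale limma called 7 of the 39 higher (2.49% of all tested genes), adding Lamb1 and Lamb3. Without knockdown replicate 4 it called 9 (2.51% of all tested genes). With no filter on low values it called 0, and 9 of 38 had an unadjusted p under 0.05 (7.48% of all tested genes). Knockdown replicate 3 lay above both controls in 22 of the 31 tested genes (35.2% of all genes) and knockdown replicate 4 in 15 (32.9% of all genes). Replicate 3 exceeded replicate 4 in 28 of the 31 (51.0% of all genes).

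**Figure D1:**
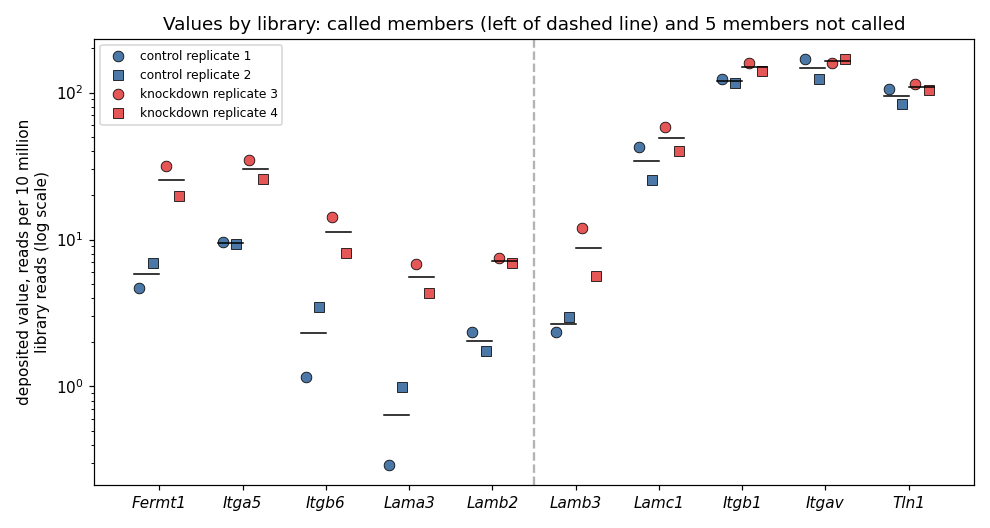
Deposited values in reads per 10000000 library reads (log scale) of the 5 called genes, left of the dashed line, and of 5 others. Points are libraries and black bars are group means. The controls of Itga5 sit at 9.59 and 9.37 units and its knockdown libraries at 34.7 and 25.9, whereas the groups of Itgav and Tln1 overlap.

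Among the integrin alpha subunits that bind the RGD sequence of fibronectin and related ligands, Itga5 rose. Itga5 (NM_001314041; mm10 chromosome 15, 103344286 to 103366791, minus strand) encodes the alpha subunit of the main fibronectin receptor. Its values were 9.59 and 9.37 units in the control pools and 34.7 and 25.9 units in knockdown pools 3 and 4. Group means were 9.48 ± 0.153 units for control and 30.3 ± 6.18 for knockdown (SD, n = 2 each). The groups lay far apart, with a higher replicate 3 (log2 fold change 1.39 ± 0.20 SE, limma adjusted p = 3.04e-04, edgeR adjusted p = 1.10e-04). The controls were close on the deposited scale and less so after median-ratio scaling, at 9.25 and 11.1 units. Without knockdown replicate 3 it was called at a log2 fold change of 1.21 (limma adjusted p = 0.00256).

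Itgav, the alpha subunit shared by the vitronectin and TGF-beta-activating receptors, was not called. It had 169 and 124 units in the control pools, compared with 158 and 169 in the knockdown pools, with overlapping groups. Its log2 fold change was -0.01, with a 95% interval from -0.25 to 0.23, and its sign turned on the deposited scale (0.17). Itga8, whose product binds nephronectin, was listed at 0 in all 4 libraries, and Itga2b, the platelet subunit, reached at most 0.913 units.

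Of the laminin-binding alpha subunits, Itga3 had the smallest p. Itga3 had 45.3 and 41.7 units in the control pools, compared with 75.4 and 61.0 in the knockdown pools. The groups did not overlap, but the difference was not called (log2 fold change 0.45 ± 0.14 SE, limma adjusted p = 0.173). Itga6, the other alpha subunit of epithelial laminin receptors, gave 60.3 and 62.7 units in control pools, 78.4 and 63.6 in knockdown pools. After scaling its groups overlapped, and its log2 fold change was 0.01 with a 95% interval from -0.29 to 0.31. Itga7, a subunit known from muscle, had 1.45 and 1.97 units in the control pools, compared with 6.0 and 1.27 in the knockdown pools, so that only replicate 3 was high.

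None of the collagen-binding subunits was called. Itga2 had 11.0 and 9.62 units in the control pools, compared with 25.7 and 14.0 in the knockdown pools, above the controls in both but mainly in replicate 3 (log2 fold change 0.65 ± 0.23 SE, limma adjusted p = 0.268). Without knockdown replicate 4 it was called (limma adjusted p = 0.00732). Itga1 had control values of 18.3 and 16.3 units and knockdown values of 18.8 and 17.6, a log2 fold change of -0.11 with a 95% interval from -0.49 to 0.28, which turned to 0.07 on the deposited scale. Its row spans Pelo, which holds 0.67 of its level, and the reads of the pair cannot be told apart. Itga11, a fibroblast subunit, had 0.726 and 0 units in the control pools, compared with 1.70 and 1.40 in the knockdown pools, and Itga10 had 0.652 to 1.16 units over the 4 libraries. Both were below the filter and were not tested.

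Itga9, whose product binds tenascin-C and osteopontin, ranged more between the controls than between the groups, at 181 and 96.2 units against 169 and 152 (log2 fold change 0.09, 95% interval from -0.21 to 0.40). Itga4, a receptor subunit for fibronectin and VCAM-1, gave 13.4 and 10.7 units in control pools, 16.2 and 13.6 in knockdown pools, and its end overlaps Cerkl on the other strand, at 2.10 times its level.

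Among the beta subunits outside leukocytes, Itgb6 rose. Itgb6 (NM_001159564; mm10 chromosome 2, 60598292 to 60722603, minus strand) encodes the epithelial partner of the alphav subunit, a receptor that activates latent TGF-beta. It had 1.16 and 3.45 units in the control pools, compared with 14.3 and 8.14 in the knockdown pools. Group means were 2.31 ± 1.62 units for control and 11.2 ± 4.39 for knockdown (SD, n = 2 each). Both knockdown libraries were above both controls, although each group spread widely (log2 fold change 1.77 ± 0.36 SE, limma adjusted p = 0.00874, edgeR adjusted p = 0.00831). The ratio of pooled reads, corrected for library depth and the median-ratio scaling, was 4.09, with a 95% counting interval from 2.44 to 7.22. Without knockdown replicate 3 Itgb6 was not called (limma adjusted p = 0.136).

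Itgb1, the beta subunit of most matrix receptors and the only known partner of the subunit encoded by Itga5, had 124 and 116 units in the control pools, compared with 160 and 141 in the knockdown pools. After scaling its groups overlapped, and the log2 fold change was 0.13 with a 95% interval from -0.12 to 0.38. The difference between the changes of Itga5 and Itgb1, and that between Itgb6 and Itgav, was not tested. Itgb4, the laminin receptor subunit of hemidesmosomes, had control values of 11.9 and 18.3 units and knockdown values of 27.1 and 23.7 (log2 fold change 0.56 ± 0.22 SE, limma adjusted p = 0.325). Its row overlaps B230344G16Rik, which holds 0.241 of its level. Itgb3, the beta subunit of the platelet fibrinogen receptor and of a vitronectin receptor, gave 5.23 and 5.18 units in control pools, 9.13 and 8.14 in knockdown pools, above the controls in both knockdown libraries but not called (limma adjusted p = 0.580). Itgb5, whose product pairs with alphav, had control values of 33.1 and 25.2 units and knockdown values of 35.7 and 37.4, and after scaling its log2 fold change was 0.15 with a 95% interval from -0.17 to 0.47. Itgb8, which like Itgb6 pairs with Itgav, gave 16.6 and 12.1 units in control pools, 15.3 and 13.4 in knockdown pools, with a log2 fold change of -0.16 that turned to 0.01 on the deposited scale.

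The leukocyte integrins had few reads. Itgb2, the common beta subunit of leukocyte integrins, had 2.33 and 1.73 units in the control pools, compared with 1.56 and 1.27 in the knockdown pools, on 10 to 16 reads a library. Itgax had control values of 2.03 and 1.23 units and knockdown values of 1.83 and 0.763, and Itgal ones of 1.45 and 1.23, then 1.83 and 1.27. Itgam and Itgb7 stayed below 1 unit in every library and were not tested. None of the 3 tested genes was called (limma adjusted p from 0.783 to 0.998). Of the 12 tested myeloid markers 1 was called, the lysozyme gene Lyz2, which passed the filter through its knockdown values (mean 6.19 units, against 0.984 in the controls) and lost its call when knockdown replicate 3 was left out (limma adjusted p = 0.117). The whole list of 15 summed to 62.8 to 73.1 units per control library and 74.9 to 90.5 per knockdown library, before median-ratio scaling. After scaling, the 12 tested markers had a median log2 fold change of 0.01. The myeloid genes Cd74 and C1qa were read in every library. The lymphocyte markers Cd3d, Cd4, Ms4a1 and Nkg7 were listed at 0 in all libraries.

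**Figure D2:**
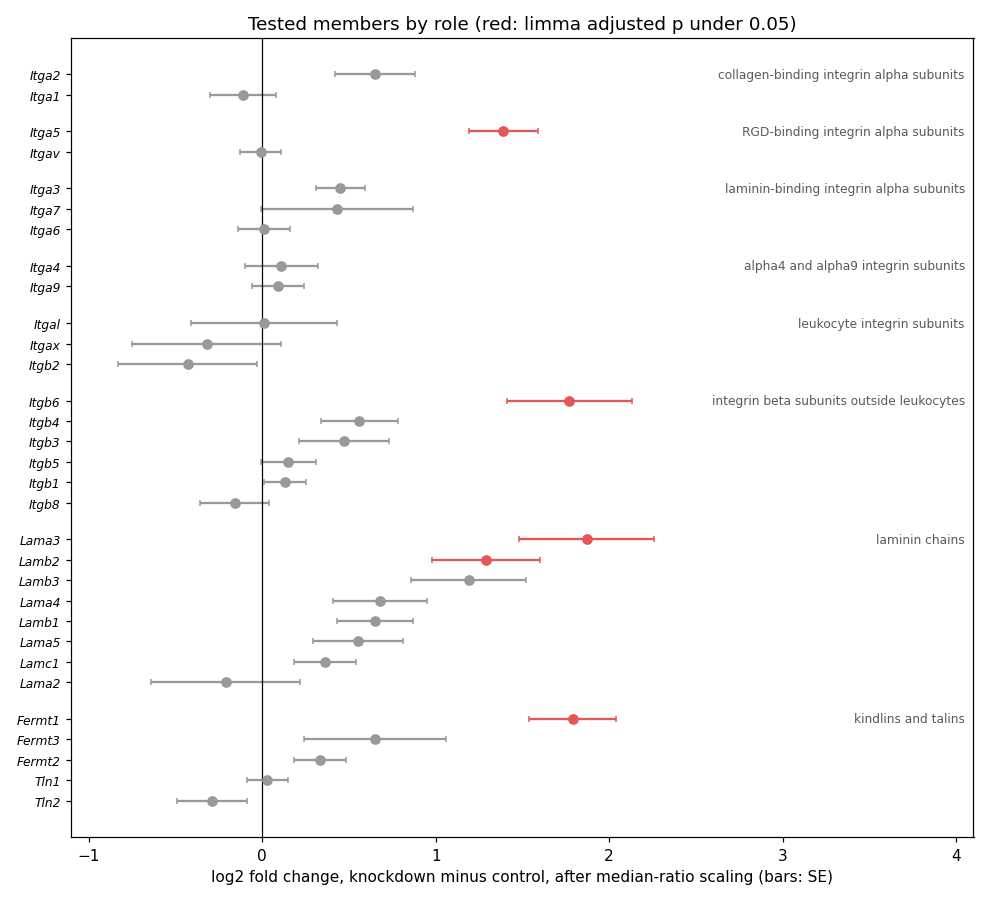
Log2 fold change, knockdown minus control, after median-ratio scaling, of the 31 tested genes grouped by role. Bars are standard errors, and red marks a limma adjusted p under 0.05. The 5 red points lie between 1.29 (Lamb2) and 1.87 (Lama3), and 24 of the 31 points lie above 0.

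Of the 8 tested laminin chains 2 rose and none fell, where 1.12% of all tested genes were called higher and 0.163% lower. Of these chains 7 lay above 0 (49.1% of all tested genes), with a median of 0.66 against -0.01 for all tested genes. Without knockdown replicate 3 the median of the chains was 0.35. Of the 2 called, Lama3 passed the filter through its knockdown values. Lama3 (NM_010680) encodes the alpha3 chain of the laminin under stratified and glandular epithelia. It had 0.291 and 0.987 units in the control pools, on 2 and 8 reads, compared with 6.78 and 4.32 in the knockdown pools, on 52 and 34 reads. Group means were 0.639 ± 0.492 units for control and 5.55 ± 1.74 for knockdown (SD, n = 2 each), so the gene was near 0 in the controls and low in the knockdown. The log2 fold change was 1.87 ± 0.39 SE (limma adjusted p = 0.0122, edgeR adjusted p = 0.0114). The ratio of pooled reads, corrected for library depth and the median-ratio scaling, was 7.27, with a 95% counting interval from 2.89 to 23.5. Without knockdown replicate 3 Lama3 was not called (limma adjusted p = 0.309).

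Lamb3 encodes the beta chain that assembles with the product of Lama3. Lamb3 had 2.33 and 2.96 units in the control pools, compared with 11.9 and 5.60 in the knockdown pools. Both knockdown libraries lay above, but it was not called (log2 fold change 1.19 ± 0.33 SE, limma adjusted p = 0.0838, edgeR adjusted p = 0.0589). It was called on the deposited scale (limma adjusted p = 0.00158) but not by DESeq2 (adjusted p = 0.294). Its log2 fold change was 1.65 without knockdown replicate 4 and 0.72 without knockdown replicate 3.

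Lamb2 (NM_008483; mm10 chromosome 9, 108479862 to 108490530, plus strand) encodes the beta2 chain of mature vascular, renal and synaptic basement membranes. It had 2.33 and 1.73 units in the control pools, compared with 7.43 and 6.87 in the knockdown pools, on 14 to 57 reads. Group means were 2.03 ± 0.423 units for control and 7.15 ± 0.400 for knockdown (SD, n = 2 each), and the knockdown pools were close to each other. The log2 fold change was 1.29 ± 0.31 SE (limma adjusted p = 0.0337, edgeR adjusted p = 0.0390). The ratio of pooled reads, corrected for library depth and the median-ratio scaling, was 3.16, with a 95% counting interval from 1.76 to 6.01. DESeq2 did not call Lamb2 (adjusted p = 0.210). By limma it was also not called without knockdown replicate 3 (adjusted p = 0.363) or replicate 4 (0.0722).

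Of the chains of vascular laminins, Lama4 had 6.97 and 4.19 units in the control pools, compared with 13.0 and 8.39 in the knockdown pools (log2 fold change 0.68 ± 0.27 SE, limma adjusted p = 0.332). Lamb1 had control values of 12.8 and 12.6 units and knockdown values of 30.1 and 17.8 (0.65 ± 0.22 SE, limma adjusted p = 0.210), and was called on the deposited scale (0.0475). Lama5 gave 9.59 and 10.6 units in control pools, 25.6 and 11.7 in knockdown pools, where only replicate 3 was high. Lamc1, the gamma chain of most laminins, had control values of 42.9 and 25.3 units and knockdown values of 58.6 and 40.1 with overlapping groups (0.36 ± 0.18 SE, limma adjusted p = 0.494). Lama2, the chain of muscle and nerve, stayed between 0.987 and 1.74 units. Lama1 and Lamc3 reached at most 0.782 units and were not tested.

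Among the activators of integrins, Fermt1 rose. Fermt1 (NM_198029; mm10 chromosome 2, 132904179 to 132946036, minus strand) encodes the kindlin of epithelia. It had 4.65 and 6.91 units in the control pools, compared with 31.6 and 19.7 in the knockdown pools. Group means were 5.78 ± 1.60 units for control and 25.6 ± 8.38 for knockdown (SD, n = 2 each). It had the smallest p of the 39 genes, with no overlap of the groups (log2 fold change 1.79 ± 0.25 SE, limma adjusted p = 3.04e-04, edgeR adjusted p = 1.31e-04). Without knockdown replicate 3 it was called at a log2 fold change of 1.48 (limma adjusted p = 0.00103).

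Fermt2, the widely expressed kindlin, had 36.5 and 35.6 units in the control pools, compared with 57.6 and 46.8 in the knockdown pools, above the controls in both but not called (log2 fold change 0.33 ± 0.15 SE, limma adjusted p = 0.444). Fermt3, the kindlin of blood cells, gave 0.872 and 1.11 units in control pools, 2.22 and 2.54 in knockdown pools, which did not overlap but were not called (limma adjusted p = 0.644), and its end overlaps Trpt1, at 1.90 times its level. Tln1, the talin of most cells, had control values of 106 and 83.4 units and knockdown values of 115 and 104 (log2 fold change 0.03, 95% interval from -0.22 to 0.28). Tln2, the talin known from muscle and brain, gave 19.6 and 13.9 units in control pools, 17.2 and 13.5 in knockdown pools (log2 fold change -0.29, limma adjusted p = 0.687).

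The 250 bases before the annotated start of Fermt1, Itga5, Itgb6 and Lamb2 are shown because these genes were called higher and their RefSeq start (GRCm38.p6) is the start of the deposited row. Of the 39 genes 27 had a RefSeq promoter entry, 23 of them at the deposited start. Capitals mark the GC box, GGGCGG on either strand.
Fermt1, chr2:132946037-132946286, minus strand: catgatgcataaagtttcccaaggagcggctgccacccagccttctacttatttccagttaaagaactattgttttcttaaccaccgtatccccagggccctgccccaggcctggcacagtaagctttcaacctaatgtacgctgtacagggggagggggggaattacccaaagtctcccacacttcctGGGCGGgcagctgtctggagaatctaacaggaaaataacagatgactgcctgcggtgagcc
Itga5, chr15:103366792-103367041, minus strand: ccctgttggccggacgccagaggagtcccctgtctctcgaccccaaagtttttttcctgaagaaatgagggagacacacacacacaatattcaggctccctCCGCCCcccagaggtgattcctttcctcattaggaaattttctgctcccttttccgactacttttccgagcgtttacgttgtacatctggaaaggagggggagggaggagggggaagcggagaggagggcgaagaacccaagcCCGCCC
Itgb6, chr2:60722604-60722853, minus strand: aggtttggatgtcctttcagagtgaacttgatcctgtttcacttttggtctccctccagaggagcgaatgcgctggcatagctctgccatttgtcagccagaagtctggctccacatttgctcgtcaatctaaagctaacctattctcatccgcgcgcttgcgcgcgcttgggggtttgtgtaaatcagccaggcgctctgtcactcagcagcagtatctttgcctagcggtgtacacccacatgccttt
Lamb2, chr9:108479612-108479861, plus strand: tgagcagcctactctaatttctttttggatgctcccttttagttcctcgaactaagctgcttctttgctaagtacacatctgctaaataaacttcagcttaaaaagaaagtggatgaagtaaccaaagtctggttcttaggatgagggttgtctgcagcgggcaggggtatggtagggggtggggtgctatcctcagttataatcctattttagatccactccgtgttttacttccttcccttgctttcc

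The windows were searched on both strands for GGGCGG (GC box), TGANTCA (AP-1) and GGAATG (TEAD). Fermt1 held 1 GC box that began 61 bases before the start, and Itga5 held 2, beginning 149 and 6 bases before it. For Fermt1 and Itga5 the last bases of the promoter entry matched no reference transcript of the gene in either direction. Those of Itgb6 and Lamb2 did match. Itgb6 and Lamb2 held no GC box, and none of these 4 windows held the AP-1 or TEAD letters. Over the 23 windows 8 held a GC box, 2 a TEAD match and 0 an AP-1 match, against 32.7%, 12.6% and 6.75% of all 32817 windows of that length.

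Of 23 tested genes for basement membrane partners and ligands of these receptors 6 rose and none fell, with a median of 0.57 (1.12% of all tested genes were called higher, and the median of all was -0.01). Fn1, which encodes fibronectin, the ligand of the Itga5 receptor, rose, and had 2.91 and 2.22 units in the control pools, compared with 29.5 and 16.3 in the knockdown pools (limma adjusted p = 1.64e-05). Tnc, which encodes tenascin-C, rose, with 16.9 and 29.1 units in the control pools and 84.2 and 74.3 after knockdown, and the integrin ligand gene Cyr61 rose from 5.81 and 5.67 to 30.8 and 17.8. Col18a1, a basement membrane collagen, rose, with 19.8 and 14.6 units in the control pools and 60.8 and 36.6 after knockdown. Hspg2, which encodes perlecan, rose from 20.1 and 12.2 to 38.7 and 25.7 units, just under the threshold (limma adjusted p = 0.0487). Spp1, which encodes osteopontin, rose from 252 and 251 to 720 and 373 (limma adjusted p = 0.0104). With a pseudocount of 0.25 the list had 5 calls. Without knockdown replicate 3 the list had 4 calls, Fn1, Tnc, Cyr61 and Col18a1.

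Of 35 tested focal adhesion genes, which link integrins to actin and signalling, 2 rose and none fell (1.12% of all tested genes were called higher). Their median log2 fold change was 0.17, against -0.01 for all tested genes, and without knockdown replicate 3 it was 0.07. Tns1, a tensin that binds beta subunit tails, rose, with 13.9 and 13.8 units in the control pools and 62.7 and 35.6 after knockdown (limma adjusted p = 1.73e-04). Flna, the actin crosslinker filamin A, rose, with 54.6 and 63.6 units in the control pools and 184 and 112 after knockdown (limma adjusted p = 9.18e-04). Both were also called without knockdown replicate 3. Vinculin (Vcl) had control values of 30.5 and 26.9 units and knockdown values of 47.7 and 41.1 and was not called (limma adjusted p = 0.261).

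Some markers of other cell types were also called higher, as were 1.12% of all tested genes. The median log2 fold change was 1.07 for stellate, fibroblast and pericyte markers, 0.64 for endothelial and 0.40 for duct markers. It was 0.01 for myeloid and -0.46 for acinar markers. Of 20 tested markers of stellate cells, fibroblasts and pericytes 10 rose (5 without knockdown replicate 3). The list summed to 133 and 137 units per control library and 410 and 310 per knockdown library, and the marker with the most reads, the intermediate filament gene Vim, rose to 87.1 and 57.4 units over 29.4 and 25.5. Of 15 tested endothelial markers 4 rose (1 without knockdown replicate 3). The 16 listed summed to 233 and 190 units per control library, then 440 and 342 per knockdown library. The one with the highest mean over all 4 libraries, the TGF-beta coreceptor gene Eng, rose to 69.6 and 45.5 units over 28.6 and 25.0. In the controls Kdr (33.7 and 29.2 units) and Cdh5 (31.4 and 25.9) were higher than Eng, and neither was called (limma adjusted p = 0.172 and 0.276).

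Of 11 tested duct markers 2 rose, Spp1 and Anxa3 (0 by limma without knockdown replicate 3, where the median was 0.25, 0 by DESeq2, and 5 without knockdown replicate 4). The 12 listed summed to 649 and 568 units per control library and 1230 and 794 per knockdown library. Spp1, which is also in the ligand list, makes up most of that difference: the other 11 summed to 398 and 317 units, then 506 and 422. The edgeR test called 3 of the 11 tested duct markers higher (1.29% of all tested genes). Of these 11 markers, 8 had a log2 fold change above 0 (49.1% of all tested genes). The duct keratin gene Krt7 gave 246 and 167 units in control pools, 224 and 234 in knockdown pools (log2 fold change -0.01). The other duct keratin listed, Krt19, gave 11.8 and 22.2, then 48.1 and 21.9 (log2 fold change 0.78, not called). No marker of these 3 lists was listed at 0 in all libraries. Of 15 islet endocrine genes Mafa, a beta cell transcription factor, fell and none rose, and after scaling 10 were below the controls in both knockdown libraries (20.0% of all tested genes). Mafa lost its call when knockdown replicate 3 was left out (limma adjusted p = 0.199), none of the 15 was called on the deposited scale or with either control left out, and 5 were called lower without knockdown replicate 4. Acinar markers summed to 3060 and 6390 units per control library, then 5420 and 2520 per knockdown library, so that control replicate 2 and knockdown replicate 3 were high. With all libraries 0 of the 12 were called by limma or edgeR, 3 had an unadjusted p under 0.05, and the median was -0.46. Leaving out knockdown replicate 3, limma called 11 of the 12 lower (0.359% of all tested genes) at a median of -1, whereas without control replicate 2 the median was 0.23 and without knockdown replicate 4 it was 0.07, with 0 called. The part of these other cell types in the changes of the integrin, laminin and kindlin genes was not tested.

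**Figure D3:**
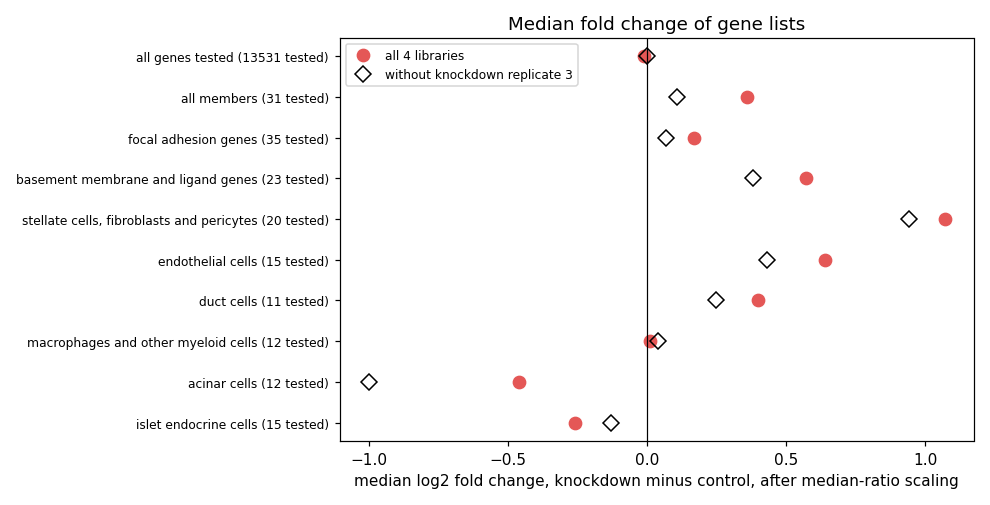
Median log2 fold change, knockdown minus control, after median-ratio scaling, of the tested genes of each list, with all 4 libraries (red) and without knockdown replicate 3 (open diamonds). The integrin, laminin, kindlin and talin genes stand at 0.36 and 0.11, the stellate, fibroblast and pericyte markers at 1.07 and 0.94, and all tested genes at -0.01 and 0.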

How the data were processed

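RNA of 2 control and 2 Tafazzin-knockdown islet pools was measured. The authors deposited a signal for each gene in each library. Per the submitters' processing notes the tools were STAR 2.5.1b, HOMER 4.9 and edgeR, on mm10, with no role given for any. The file is named for FPKM, but its deposited signal is reads per 10000000 library reads: 100% of values were whole multiples of 1 read (0.123 to 0.145 units) within 0.01 reads, whatever the gene length. The length column is the genomic span, introns included, for 99.2% of rows. The counted region and use of strand are not given in the sources used here, so overlapping genes cannot be told apart. Of genes with 30 to 99 reads 75.0% to 76.1% had an even number, where 50% would be even for single reads, so most reads come 2 at a time and counting intervals (exact binomial, counting error only) were taken over read pairs.

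Values were divided by median-ratio size factors (1.037 and 0.848 for the controls, 1.077 and 1.056 for the knockdown) and tested as log2(value + 1) with limma 3.58.1 in R 4.3.3 (trend, two-sided, Benjamini-Hochberg over 13531 genes whose mean reached 1 unit and whose length reached 200 nt). Alternatives were the deposited and TMM scaling, no filter, a pseudocount of 0.25, edgeR 4.0.16 and DESeq2 1.42.0 on recovered reads, and each library left out. On simulated data for this comparison (13507 genes) limma recovered 82% of 100 genes changed 2-fold and 100% of 100 changed 4-fold, with 3 false calls. The simulation gave every gene the same dispersion and let libraries differ only in depth, unlike these data. It therefore does not show what share of real 2-fold changes would be called. No 2 libraries agreed within sampling noise (chi-square per degree of freedom 8.46 to 18.2, over single reads, which come mostly 2 at a time). The 2 controls differed from each other (16.8) more than from knockdown replicate 4 (9.19 and 12.5). They differed less from each other than from knockdown replicate 3 (18.2 and 17.5). The genes and lists were chosen with earlier results of these data known, and the motifs after the values were seen. Named are the called genes, Itgb1, Itgav, Tln1 and Lamc1, the others by value or range, at most 6 called genes of each pathway list by p, and the markers with the most reads. Vcl, Lyz2, Anxa3, Krt19, Mafa and the markers listed at 0 fall outside that rule and were named after their values were seen.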

Additional observations from a re-analysis of the deposited data

How the results depend on the processing

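No paired analysis was possible because the groups share no replicate number. The counts of called genes (151 higher and 22 lower of all tested genes, 5 of the 39 genes, 2 focal adhesion genes and 6 basement membrane and ligand genes) depended on the setting. On the deposited scale all genes gave 337 higher and 6 lower and focal adhesion genes 4. With no filter on low values every count by limma was 0 (1316 genes at an unadjusted p under 0.05), for all genes higher and lower, the 39 genes, and both lists. DESeq2 called 82 higher and 10 lower, 1 focal adhesion gene and 3 basement membrane and ligand genes. With 1 library left out, the lone library being assumed to vary like the others, all genes called higher ranged from 0 to 339 and lower from 0 to 67, the 39 genes from 0 to 9, focal adhesion genes from 0 to 4, and basement membrane and ligand genes from 0 to 13. Each 0 came without control replicate 1 or 2 (731 and 1256 genes at an unadjusted p under 0.05), and the highest values came without knockdown replicate 4. No count of the 39 genes called lower rose above 0 in any setting.

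The direction of some genes that were not called turned. On the deposited scale Itga1 went to 0.07, Itgav to 0.17 and Itgb8 to 0.01, and with TMM scaling Itgav went to 0. With 1 library left out the log2 fold change of Itga6 ranged from -0.16 to 0.19, Itga7 from -0.35 to 1.21, Itga9 from -0.21 to 0.40, Itgav from -0.08 to 0.07, Itgal from -0.13 to 0.15, Itgax from -0.64 to 0 and Tln1 from -0.02 to 0.09. The 5 called genes kept their direction in all settings tried. Their adjusted p was 0.604 with no filter, 0.822 without control replicate 1, and 0.167 (Fermt1) to 0.382 (Lamb2) without control replicate 2. In these 3 settings the prior degrees of freedom that limma estimated were 3.5, 3.9 and 5.5, against 21.3 with all libraries and the filter. The cause was not tested. Counting precision was lowest for genes under about 2 units, which rest on fewer than 20 reads a library.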
